A study of Mus musculus with 8 samples.

Results

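The release machinery of the nerve terminal was described in the hypothalamus (HT) of mice exposed to maternal separation (MS). It was represented by 37 genes for proteins of the synaptic vesicle, the fusion complex, the calcium sensors, the active zone, vesicle retrieval and the adhesion pairs of the cleft. Members were found by matching the gene name of each non-control probe. All 37 were on the array, among 19985 genes with a RefSeq symbol, and held 70 of the 55681 probes. HT came from 8 male C3H/HeN mice, with 1 one-colour array per mouse. The 4 MS mice had gone through maternal separation combined with chronic unpredictable stress of the mother from PND 2 to PND 14, and the 4 control mice had not. Mice of both groups were weaned at PND 21, were housed in groups and had completed operant tests for palatable food. All were food deprived before their brains were taken as adults. Each sample was whole tissue, so a level is an average over neurons, glia and vessels, and fewer cells of a type and less RNA per cell cannot be told apart.

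Vesicles store transmitter behind a ring of membrane proteins and are tethered to the cytoskeleton by synapsins. At the active zone, scaffold proteins and small GTPases of the Rab3 family hold them near the calcium channels, and Munc13 proteins prime them. Fusion is driven when synaptobrevin on the vesicle zips up with syntaxin and SNAP-25 on the plasma membrane. Complexins clamp this complex and synaptotagmins release the clamp when calcium enters. In the HT the same proteins serve fast GABA and glutamate synapses and, in part, the release of neuropeptides from dense core vesicles.

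Levels below are log2 processed intensities above the 75th percentile of the array, so a level of 0 is that percentile and a step of 1 is a doubling. Each gene is represented by its brightest probe, and fold changes are log2 differences, MS minus control. The number of probes well above background ranged from 34074 to 39598 per array and no spot was saturated. MS mouse 7.6 had the fewest, and its 75th percentile intensity was 566, against 853 to 1012 on the other arrays. All 8 arrays lay on 1 slide with 1 scan time, 2 control and 2 MS mice in each of its 2 rows. Markers of the HT were well above background on all 8 arrays for 10 of 10 genes. The mean deviation of these 10 markers was -0.27 in MS mouse 5.3 and -0.30 in MS mouse 7.2, against -0.09 to 0.29 in the other mice. Pituitary markers stood 2.32 above their mean in control mouse 6.2, against -0.74 to 0.31 elsewhere. The labels name individual mice, but litters are not given in the sources used here.

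No release gene passed the test between MS and control HT. In limma, 0 of 37 members had an adjusted p under 0.05, with 0% of all 37313 tested probes (0 probes) past that threshold. The smallest adjusted p of a member was 0.976. At an unadjusted p under 0.05, limma gave 0 of 37 members, against 2.59% of 15472 named genes. That count was 2 with quantile normalization, in the authors' table and with array weights, in each case *Nrxn2* and *Cplx2*. It was also 2, *Nrxn2* and *Stx1a*, with mice blocked at random by the number before the dot of their label (the random block). It was 1, *Nrxn2*, with normexp background correction and with the trend and robust options of eBayes. With a mouse left out it was 0 to 2. *Cplx2* was counted by a probe made only of A and G, and whether it measures *Cplx2* was not tested. Over all probes, 1136 of 37313 passed with quantile normalization, 1084 of 34970 in the authors' table and 1609 of 37313 with array weights. The random block gave 3517 of 37313, normexp 510 and the trend and robust options 987. With every tested probe of the members counted, 2 of 69 passed the unadjusted threshold, against 3.27% of all probes. The 4 MS values did not overlap the 4 control values in 1 of 37 members, against 1.97% of named genes, and in 2 of 69 member probes, against 2.04% of all probes. Each of these counts of members was small, and those set beside a background share lay at or near it. No share of named genes is given here for the other settings.

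The fold changes were small. Their median over the 37 members was 0.014, against 0.016 over all named genes, and it became -0.028 with quantile normalization and -0.027 in the authors' own table of values. The range ran from -0.22 for *Syt2* to 0.10 for *Syt11*, with 23 members above 0 and 14 below. The share above 0 was 62.2%, against 57.9% of all named genes. With all 69 tested probes of the members counted, 30 were above 0 and 39 below, with a median of -0.020. That share above 0 was 43.5%, against 53% of all tested probes. The median size of a fold change, whatever its sign, was 0.044 in the members and 0.059 in all named genes. The 95% interval stayed within a 1.5-fold change in either direction for 37 of 37 members, against 88.9% of all named genes. It stayed within 1.2-fold for 24 of 37 members, or 64.9%, against 52.6% of all named genes. All 37 members were well above background on all 8 arrays, against 14448 of 15472 named genes. The median standard error was 0.078 in the members and 0.083 in all named genes. The part of signal level in the smaller sizes and narrower intervals of the members was not tested.

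**Figure D1:**
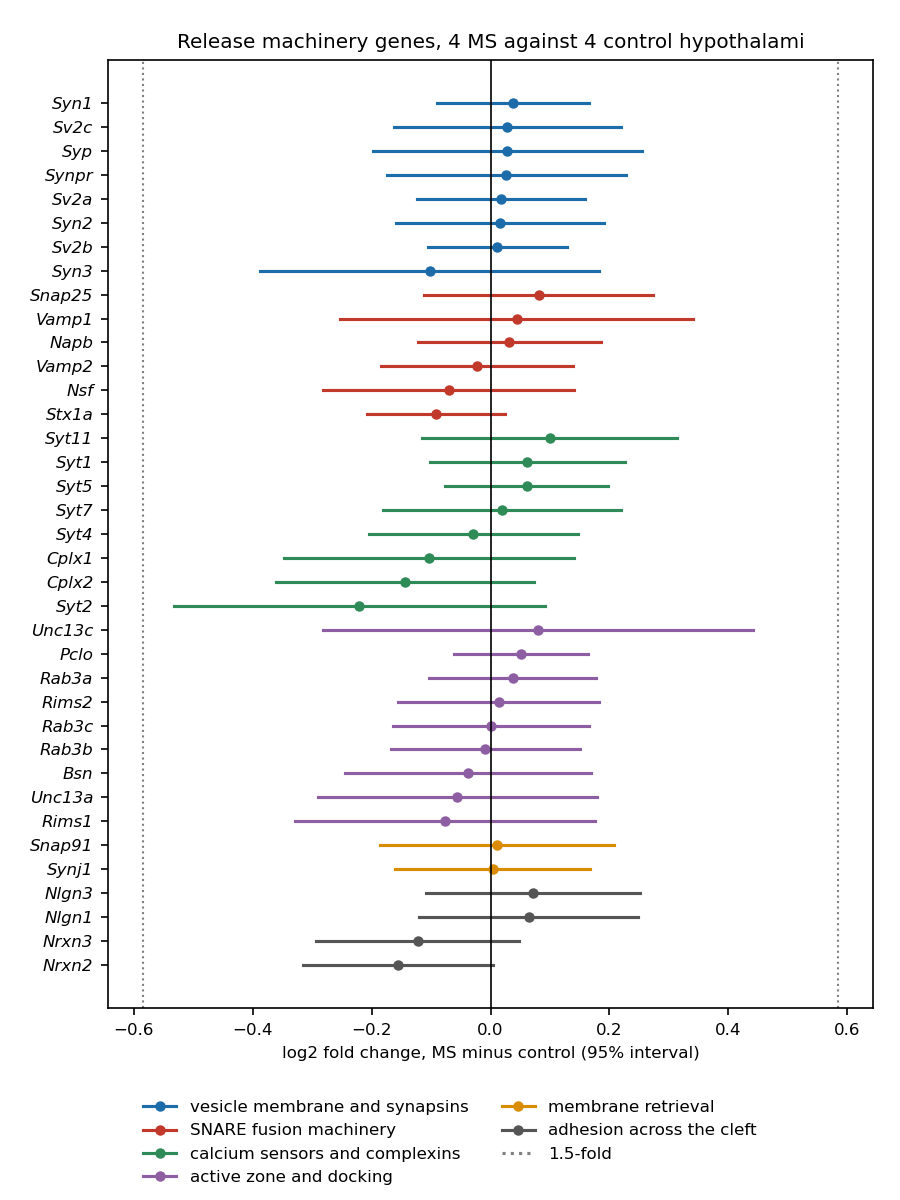
Log2 fold change (MS minus control) of each of the 37 release genes on the x axis, with points for the estimate, bars for the 95% interval of limma and colours for the role of the gene. Every bar crosses 0 and lies inside the dotted lines that mark a 1.5-fold change.

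The fusion machinery had 3 members above 0 and 3 below. In the sentences that follow, mice are listed in the order control 8.2, 8.4, 6.2 and 8.5, then MS 5.3, 7.2, 7.1 and 7.6. *Stx1a* codes for syntaxin 1A, the plasma membrane SNARE of the terminal. Its level was 1.14, 1.16, 1.14 and 1.14 in control mice and 1.06, 0.99, 1.11 and 1.04 in MS mice. This was the only member of the 37 whose groups did not overlap, every MS mouse being lower than every control mouse. The difference was -0.09 with a standard error of 0.051, a linear ratio of 0.938 with a 95% interval from 0.866 to 1.02. An exact two-sided permutation test over the 8 mice gave p = 0.0286, which is the smallest that 4 against 4 mice allow. Any gene whose groups do not overlap gives this p, as 1.97% of named genes did, so it only restates the separation. Limma gave an unadjusted p of 0.107 and an adjusted p of 0.976. The control SD of 0.010 was the smallest of any member, and the MS SD was 0.053. The difference held in both slide rows, at -0.12 and -0.06, and *Stx1a* kept its sign under each of the 18 other settings tried, from -0.11 to -0.07. Its single probe lies at chr5:135526477-135526536 (mm9, plus strand). The last 30 bases of its 60 are shown 5′ to 3′ because they identify what was measured, with capitals for the longest run of A and G, a feature that matters for *Cplx2* further on.
Stx1a, A_51_P182728: gttgtggccagagttgcatgttGGGGAcag

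*Snap25*, the other plasma membrane SNARE and one of the best known markers of nerve terminals, had levels of 5.85, 5.91, 5.83 and 5.68 in control mice and 5.95, 5.79, 5.79 and 6.07 in MS mice. The groups overlapped, and MS mouse 7.6 and control mouse 8.5 formed the ends of the range. The fold change was 0.08, with a 95% interval from -0.11 to 0.27. *Vamp2*, synaptobrevin 2 of the vesicle, had levels of 5.24, 5.14, 5.06 and 4.97 in control mice and 5.15, 5.09, 5.05 and 5.02 in MS mice. All 4 MS values lay inside the range of the controls, with a fold change of -0.02. *Vamp1*, the synaptobrevin more abundant in hindbrain and motor neurons, was 0.04. It varied most among the SNARE genes, by 0.63 over the 8 mice, between 2.60 in control mouse 8.5 and 3.24 in control mouse 8.4. The fold change was -0.07 for *Nsf*, the ATPase that takes spent fusion complexes apart, and 0.03 for its adaptor *Napb*.

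**Figure D2:**
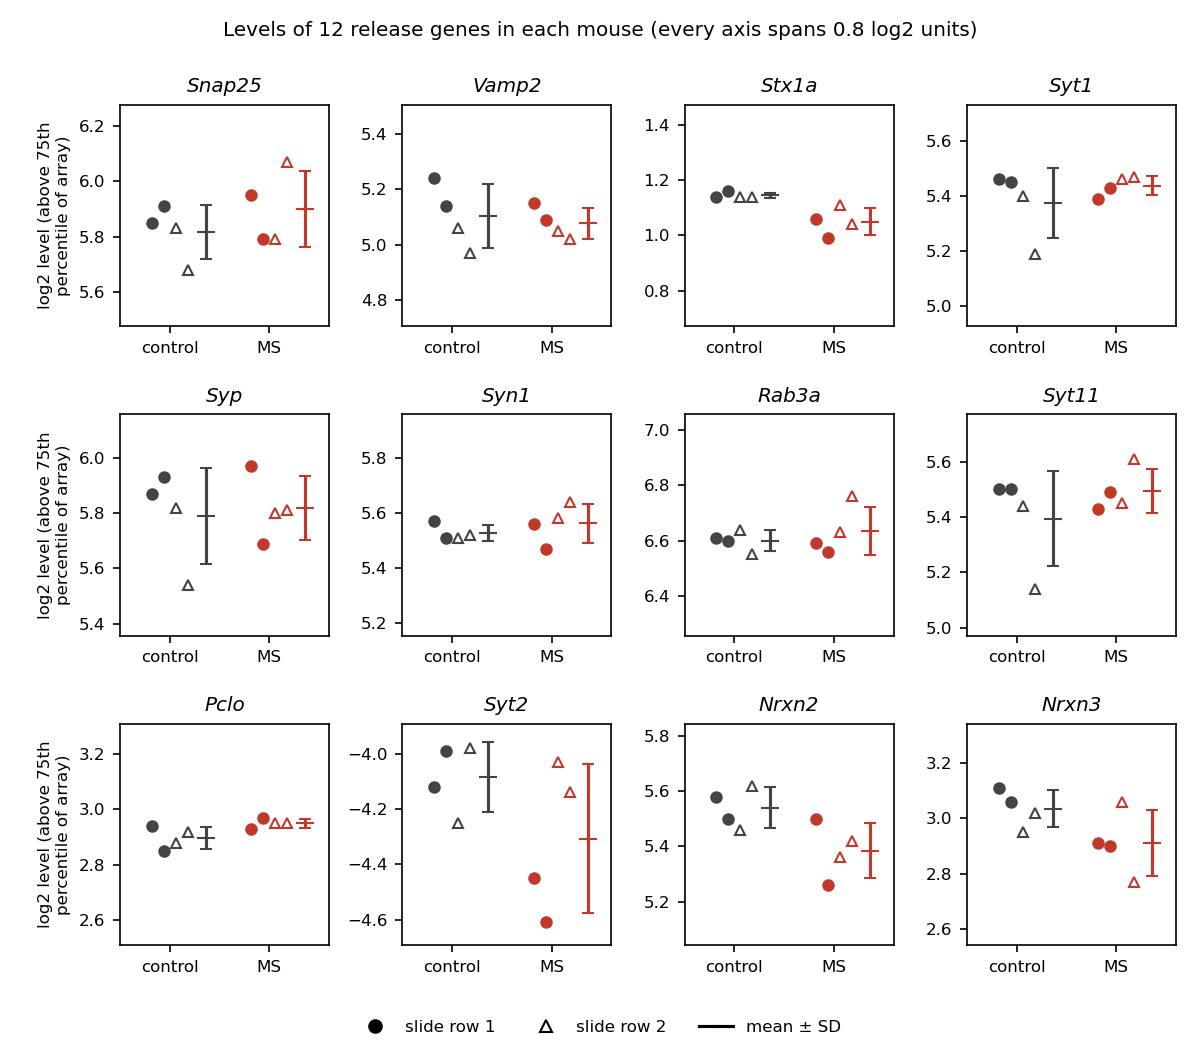
Level of 12 release genes in each mouse (y axis, log2 intensity above the 75th percentile of the array), with control mice in grey and MS mice in red, circles for row 1 and triangles for row 2 of the slide, and bars for the mean ± SD of 4 mice. *Stx1a* is the only panel in which the 2 groups do not overlap.

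Proteins of the vesicle membrane and the synapsins lay close together, with 7 of 8 genes between 0.01 and 0.04. *Syp* codes for synaptophysin, a major vesicle membrane protein. Its level was 5.87, 5.93, 5.82 and 5.54 in control mice and 5.97, 5.69, 5.80 and 5.81 in MS mice, a fold change of 0.03. Control mouse 8.5 was the lowest and MS mouse 5.3 the highest in *Syp*. *Syn1*, synapsin I, had levels of 5.57, 5.51, 5.51 and 5.52 in control mice and 5.56, 5.47, 5.58 and 5.64 in MS mice, a fold change of 0.04. Its whole range over 8 mice was 0.17. The remaining genes were 0.02 for *Syn2*, 0.03 for the synaptophysin relative *Synpr*, and 0.02, 0.01 and 0.03 for the vesicle glycoproteins *Sv2a*, *Sv2b* and *Sv2c*. *Sv2b* varied least of all members, by 0.084 over the 8 mice. The sign of values this small depended on the scaling, and *Syn1*, *Syn2*, *Sv2a* and *Syp* were below 0 both with quantile normalization and in the authors' table.

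*Syn3*, synapsin III, was -0.10 and was the one gene of the vesicle group below 0, but its probes did not point one way. The fold change was -0.10 for the brightest probe, -0.09 for the second and 0.20 for the third, and limma gave an unadjusted p of 0.0354 for the third. The fourth *Syn3* probe was well above background on 1 of 8 arrays and was not tested. The brightest probe was designed on a cDNA clone at chr10:85586568-85586627, the second on the RefSeq transcript at chr10:85518277-85518336, and the third on an Ensembl transcript at chr10:85813890-85813949 (mm9, minus strand for each). The brightest probe holds a run of 27 bases of A and G, and whether it measures *Syn3* was not tested. The last 30 bases are shown for these 3 probes, which lie at different positions of 1 gene and gave different signs. Capitals mark the longest run of A and G.
Syn3, A_55_P2370250: AAAGAGAGAGAAAAGGAGAGAGAGAGAcag
Syn3, A_55_P2088054: AAGtccttcgccagtctcttctctgactag
Syn3, A_55_P2179996: agtgtaattttaatAAAAActgtgttattc

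Calcium sensors and complexins held the widest spread, from -0.22 to 0.10, with 4 genes above 0 and 4 below. *Syt1*, the sensor for fast synchronous release, had levels of 5.46, 5.45, 5.40 and 5.19 in control mice and 5.39, 5.43, 5.46 and 5.47 in MS mice. The fold change of *Syt1* was 0.06, and it was 0.001 once control mouse 8.5 was left out. *Syt11*, a synaptotagmin that does not bind calcium, had levels of 5.50, 5.50, 5.44 and 5.14 in control mice and 5.43, 5.49, 5.45 and 5.61 in MS mice. Its fold change of 0.10 also rested on control mouse 8.5, without which it was 0.01. *Syt5*, a synaptotagmin of dense core vesicles, had levels of 5.74, 5.67, 5.76 and 5.70 in control mice and 5.81, 5.69, 5.73 and 5.88 in MS mice, a fold change of 0.06. *Syt7*, the sensor for slow asynchronous release, was 0.02, and *Syt4*, which is induced by activity, was -0.03.

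*Syt2*, the fast sensor of hindbrain and fast-spiking terminals, had the most negative fold change, -0.22 with a standard error of 0.136. Its level was -4.12, -3.99, -4.25 and -3.98 in control mice and -4.45, -4.61, -4.03 and -4.14 in MS mice. The probe was dim but well above background on all 8 arrays. The low values were those of MS mice 5.3 and 7.2, both in row 1, and the other 2 MS mice lay among the controls. Hence the difference was -0.48 in row 1 and 0.03 in row 2. *Cplx1*, complexin 1, followed the same split, with -0.34 in row 1, 0.14 in row 2 and -0.10 over all mice. MS mice 5.3 and 7.2 are those in which the mean of the 10 HT markers was lowest. The markers did not all go that way, and over all mice 4 had a fold change above 0 and 6 below. *Nkx2-1* was 0.92 and 0.69 in MS mice 5.3 and 7.2 and 0.44 to 0.62 in the others. Of these markers, *Hcrt*, the orexin gene of the lateral HT, was 3.30 and 3.37 in these mice and 5.33 to 6.48 in the others. The part of such a difference in sampled tissue was not tested.

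*Cplx2*, complexin 2, had 5 tested probes, and their sequences differed in kind. Taken by its brightest probe, its level was 7.15, 6.95, 7.0 and 6.74 in control mice and 6.84, 6.68, 6.83 and 6.92 in MS mice, a fold change of -0.14. That probe, and 3 of the other 4, contain only A and G over all 60 bases. The fold changes of these 4 probes were -0.14, -0.11, -0.10 and -0.07, and that of the probe of mixed sequence was 0.02. The array files name all 4 *Cplx2* but place 2 of them away from the other *Cplx2* probes, and whether they measure *Cplx2* was not tested. The accessions that the array files list for the brightest probe belong to *Cplx2*, *Emp2* and *Rab3c*. The mixed probe lies at chr13:54485200-54485259 (mm9, plus strand). Its last 30 bases are printed because it is the one probe of *Cplx2* that did not give a negative value, with the longest run of A and G in capitals.
Cplx2, A_51_P485161: tgatgtacAAAAccaaccatgatgacaaag

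Probes of this kind shared a sign across the array, whatever gene they were named for. A run of at least 30 bases of A and G was present in 77 tested probes, of which 4 were named *Cplx2* and no other belonged to a member. Their median level was 6.38, against -1.48 for all tested probes. Of these 77 probes 76 had a fold change below 0, with a median of -0.09, against 47.0% of all probes and a median of 0.007. The count below 0 was 76 of 77 with quantile normalization, 74 of 77 with normexp background correction and 76 of 76 in the authors' table. With the *Cplx2* probes left out, the mean deviation of the 73 others was 0.19, 0.12, -0.10 and 0.02 in the control mice and -0.05, -0.05, -0.07 and -0.04 in the MS mice. The shared sign lay mostly in row 1 of the slide, where the median fold change of the 77 probes was -0.165, against -0.013 in row 2, and these medians were -0.011 and 0.021 for all probes. The *Cplx2* probes of this kind did not all follow the 73 others, since MS mouse 7.6 stood at 0.28, 0.23 and 0.18 in 3 of them and at 0.03 in the brightest. Among the 70 member probes, the longest run outside *Cplx2* was 27 bases, in the brightest *Syn3* probe. The mixed *Cplx2* probe had levels of 5.21, 5.22, 5.15 and 5.04 in control mice and 5.23, 5.06, 5.16 and 5.26 in MS mice, with overlapping groups. Under this scaling its fold change was 0.02, and it was -0.03 with quantile normalization and -0.06 in the authors' table.

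**Figure D3:**
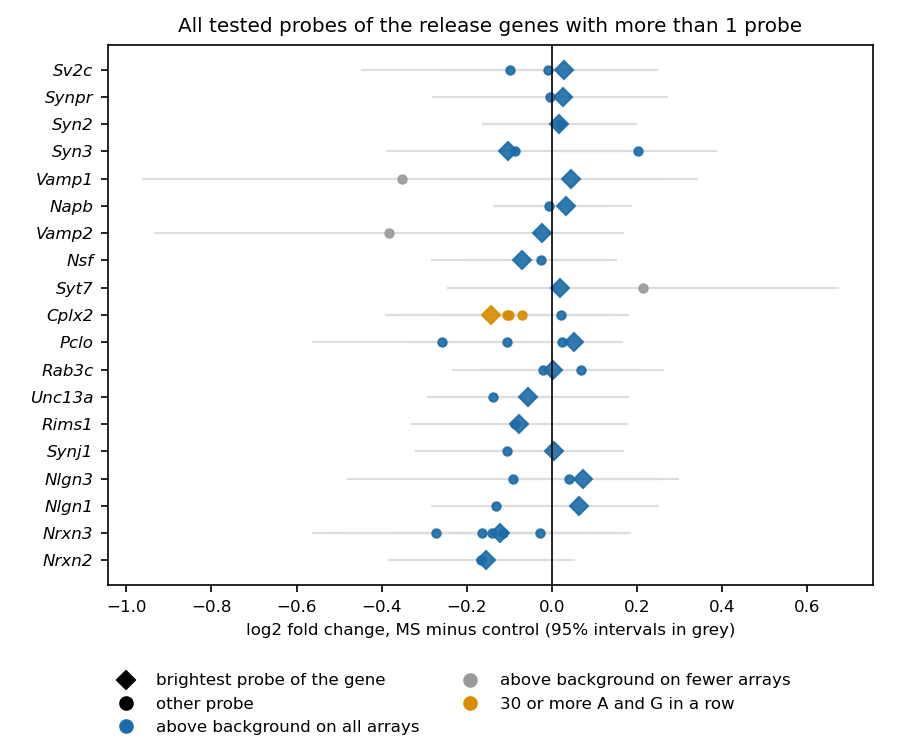
Log2 fold change (x axis, MS minus control) of every tested probe of the 19 release genes with more than 1 tested probe, with diamonds for the brightest probe of a gene, orange for probes with 30 or more A and G in a row, light grey points for probes not well above background on all 8 arrays and grey bars for 95% intervals. The 4 orange probes of *Cplx2* lie left of 0 and its remaining probe at 0.02, while all probes of *Nrxn2* and *Nrxn3* lie left of 0.

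At the active zone and among docking factors, 5 of 9 genes were above 0 and all 9 lay between -0.08 and 0.08. *Rab3a*, the main GTPase of synaptic vesicles, had levels of 6.61, 6.60, 6.64 and 6.55 in control mice and 6.59, 6.56, 6.63 and 6.76 in MS mice, a fold change of 0.04. Its relatives were -0.01 for *Rab3b* and 0.001 for *Rab3c*. *Pclo* codes for piccolo, a giant scaffold protein of the active zone. Its level was 2.94, 2.85, 2.88 and 2.92 in control mice and 2.93, 2.97, 2.95 and 2.95 in MS mice. The difference of 0.05 was near the spread of the controls (SD 0.040), and an exact permutation test over the mice gave p = 0.0571. Its 3 dimmer probes gave no common sign, and the 4 probes ran from -0.26 to 0.05. The partner scaffold *Bsn*, bassoon, was -0.04.

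The RIM scaffolds, which bind Rab3 and calcium channels, were -0.08 for *Rims1* and 0.01 for *Rims2*. *Unc13c*, a Munc13 priming factor that is abundant in the cerebellum, was 0.08 and had the widest range of any member over the mice, 0.68, between control mice 8.5 and 8.2. *Unc13a*, the main priming factor, was -0.06 by its brightest probe and -0.14 by its second. The second probe was the other member probe whose groups did not overlap, with a limma unadjusted p of 0.0477. It was designed on the RefSeq transcript at chr8:74154416-74154475, and the brightest on a cDNA clone at chr8:74148542-74148601 (mm9, minus strand for both). Their last 30 bases are given since both probes were below 0 and only the dimmer one separated the groups.
Unc13a, A_55_P2047135: acaagggcAGAGAGAAGctctggaagtaag
Unc13a, A_55_P2017964: gggcgcccaagtataacGAGAGcttccagt

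Both genes of vesicle retrieval were near 0. *Synj1*, the lipid phosphatase that helps strip clathrin coats from vesicles, was 0.004 and *Snap91*, the clathrin adaptor AP180, was 0.01.

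The adhesion pairs differed in sign between presynaptic and postsynaptic partners, without passing the test. Neurexins sit on the terminal, and *Nrxn2* and *Nrxn3* were -0.16 and -0.12. Neuroligins sit opposite to them, and *Nlgn1* and *Nlgn3* were 0.06 and 0.07 by their brightest probes, while each had a dimmer probe below 0, at -0.13 and -0.09. *Nrxn2* had levels of 5.58, 5.50, 5.46 and 5.62 in control mice and 5.50, 5.26, 5.36 and 5.42 in MS mice. The groups overlapped through MS mouse 5.3, and the limma unadjusted p of 0.055 was the smallest of the members. *Nrxn3* had levels of 3.11, 3.06, 2.95 and 3.02 in control mice and 2.91, 2.90, 3.06 and 2.77 in MS mice. MS mouse 7.1 was among the controls in *Nrxn3*. *Nlgn3* had levels of 2.38, 2.45, 2.44 and 2.44 in control mice and 2.51, 2.33, 2.47 and 2.69 in MS mice, and without MS mouse 7.6 its fold change was 0.009.

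The negative sign of the neurexins was shared by their probes. Both probes of *Nrxn2* were below 0, at -0.16 and -0.17. All 6 probes of *Nrxn3*, which span chr12:90033278-91573374 (mm9), lay between -0.27 and -0.03. The same 8 probes were below 0 with quantile normalization, with normexp background correction and in the authors' table. *Nrxn2* was -0.16 in row 1 and -0.15 in row 2, and *Nrxn3* was -0.18 and -0.07. None of the 8 probes passed the unadjusted threshold under the 75th percentile scaling. In limma the brightest *Nrxn2* probe passed it, without passing the adjusted one, with quantile normalization (-0.22), with normexp background correction (-0.17), in the authors' table (-0.22) and with the random block (-0.18), among other settings. Probes of 1 gene in the same mice are not independent measurements. For the same reason the last 30 bases of the *Nrxn2* probes, at chr19:6533156-6533215 and chr19:6532125-6532184 (plus strand), are shown as 2 readings of 1 transcript.
Nrxn2, A_55_P1954061: GGAAAAAGAAAAcaaaaactttccaaattc
Nrxn2, A_55_P1954067: agtccAGGcaccccactgccagctgctcct

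Individual mice differed more than groups did. The mean deviation of the 37 members from their own means was 0.09, 0.04, -0.05 and -0.07 in control mice and 0.02, -0.03, -0.006 and -0.008 in MS mice. Control mouse 8.2 was the highest mouse for 12 members and the lowest for none. Control mouse 8.5 was the lowest for 12 members, among them *Snap25*, *Syp*, *Syt1*, *Syt11* and *Vamp1*. The 2 ends of the range were thus both controls, in different rows of the slide, and all MS means lay between them. General neuron markers were at -0.14 in control mouse 8.5 and between -0.04 and 0.04 in the other mice, and oligodendrocyte markers at -0.31 there against -0.10 to 0.19. Leaving out control mouse 8.5 moved the median of the members to -0.015, and leaving out control mouse 8.2 moved it to 0.043.

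**Figure D4:**
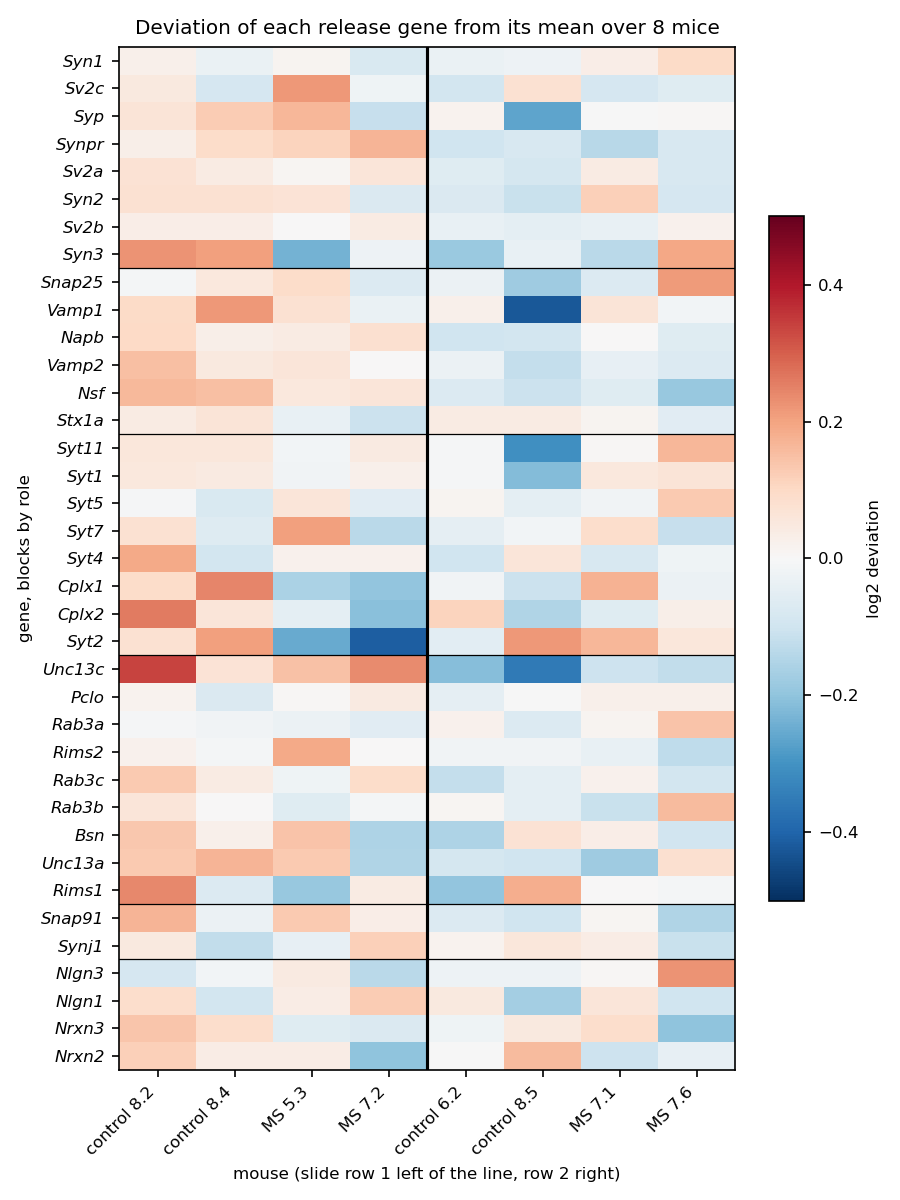
Deviation of each release gene (y axis, blocks by role) from its mean over the 8 mice, in log2 units from blue (lower) to red (higher), with row 1 mice left of the line and row 2 mice right. Control mouse 8.2 is red and control mouse 8.5 is blue for many genes, and MS columns hold no common colour.

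Within the rows of the slide, the members leaned opposite ways. Each row holds 2 control and 2 MS mice. The median fold change of the 37 members was -0.040 in row 1, where 10 members were above 0, and 0.043 in row 2, where 28 were. For all named genes these medians were -0.002 and 0.030. The sign was the same in both rows for 11 of 37 members, among them *Nrxn2*, *Nrxn3*, *Stx1a*, *Nsf*, *Pclo* and *Syt5*. Counts by row were not made over all named genes. Neuron markers had medians of -0.009 in row 1 and 0.125 in row 2. For the 64 further release genes described below, these medians were -0.018 and 0.050. With the row as a term in limma, 0 of 37 members passed, and the smallest adjusted p was 0.958.

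**Figure D5:**
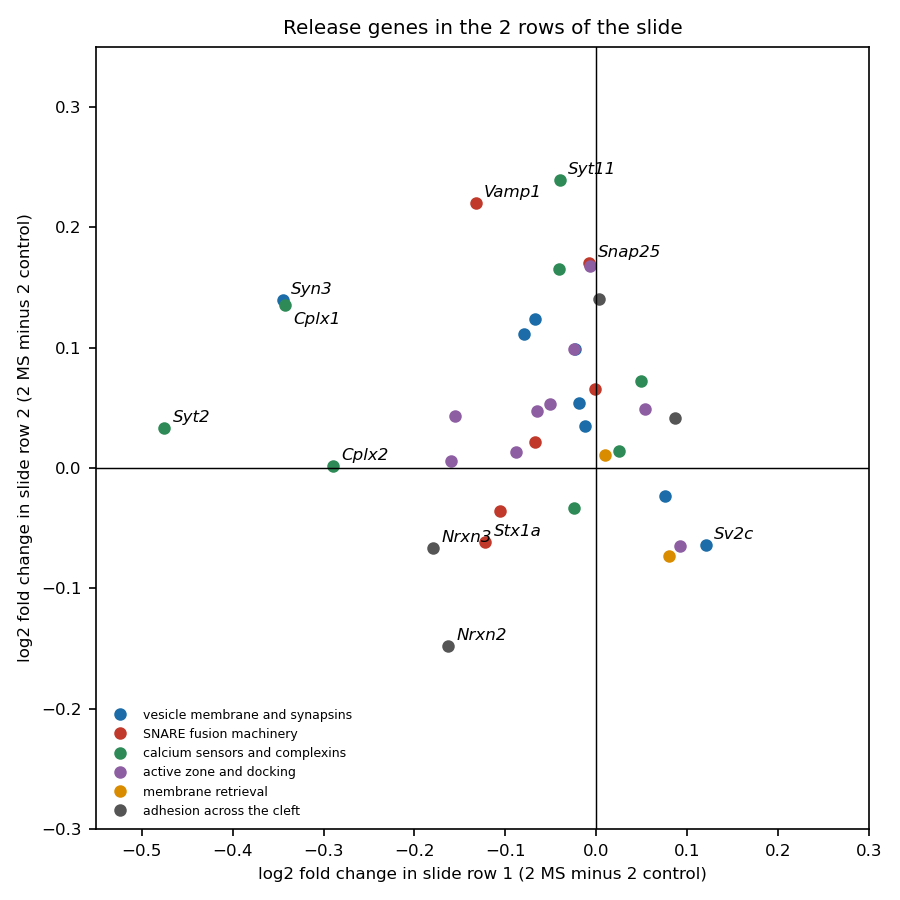
Log2 fold change of each release gene in slide row 1 (x axis, 2 MS minus 2 control mice) and in row 2 (y axis, 2 MS minus 2 control mice), coloured by role. Many genes lie at the upper left, below 0 in row 1 and above 0 in row 2, and *Nrxn2* lies at the lower left, at -0.16 and -0.15.

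Further genes of the same pathway were read from the same fit. Of 65 such genes, 64 were tested, 0 passed the adjusted threshold in limma and 3 the unadjusted one, against the 2.59% of named genes. Their median was 0.014 and their range -0.50 to 0.28, with 38 above 0 and 26 below. Among the positive fold changes the smallest p was that of *Cacna1b*, the N-type calcium channel that triggers release. Its level was -4.49, -4.65, -4.63 and -4.84 in control mice and -4.58, -4.32, -4.42 and -4.18 in MS mice, a fold change of 0.28 with an unadjusted p of 0.0286 and an adjusted p of 0.976 in limma. Among the negative ones it was that of *Rimbp2*, which links RIM to calcium channels. Its level was -4.53, -4.74, -4.70 and -4.79 in control mice and -5.69, -4.67, -5.10 and -5.3 in MS mice, a fold change of -0.50, and it was well above background on 7 of 8 arrays. Both are dim probes. The third was *Slc18a2*, the vesicular monoamine transporter, at 0.23, with levels of 1.85 to 2.01 in controls and 2.01 to 2.34 in MS mice that did not overlap before rounding.

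The vesicular transporters mark which transmitter a terminal releases. *Slc17a6*, the glutamate transporter of HT and thalamus, had levels of 3.95, 3.81, 3.94 and 3.90 in control mice and 4.06, 4.20, 3.91 and 4.02 in MS mice, a fold change of 0.15 with an unadjusted p of 0.0723 in limma. *Slc32a1*, the GABA transporter, had levels of 5.71, 5.67, 5.48 and 5.44 in control mice and 5.39, 5.40, 5.60 and 5.62 in MS mice. Its sign changed between the rows, from -0.30 to 0.15. *Slc17a7*, the cortical glutamate transporter, was not well above background on any of the 8 arrays and was not tested.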

How the data were processed

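The arrays of the HT from 4 control and 4 MS mice were analysed, grouped by the sample labels. The authors scanned one-colour Agilent arrays hybridised with Cy3-labelled cRNA from 200 ng of total RNA and deposited spot intensities from Agilent Feature Extraction 10.10.1.1, corrected for background. The deposited table of log2 values, for which the submitters' processing notes name limma, was an alternative; its normalization and filter are not given in the sources used here. In the headers, the array design number differs from that in the paper's methods. Probe positions are those of the files (mm9), and whether a probe lies in a coding exon or a UTR was not determined here. The sequences and positions of the *Cplx2* probes made only of A and G are not reported here.

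Outlier spots were left out, log2 processed intensities were averaged per probe, and each array was scaled to its 75th percentile. A probe had to be well above background on 4 or more of the 8 arrays to enter limma 3.58.1 (lmFit, eBayes; R 4.3.3, data.table version 1.17.8), with Benjamini-Hochberg adjustment over all probes tested at 0.05. The code was tested on simulated data. Single values were also compared by an exact permutation test over the 70 splits of the mice. The only technical split in the headers is the slide row. With 4 mice per group, the number of arrays limits precision. The p-values measure the spread between mice and, outside the random block, treat the mice as independent.

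Members and lists were chosen with earlier results of these data known. Mouse values were given for *Snap25*, *Vamp2*, *Stx1a*, *Syt1*, *Syp*, *Syn1*, *Rab3a*, the 5 members of smallest p in each direction and any member without overlap, and, of the other release genes, for the smallest p in each direction and *Slc17a6*, *Slc17a7* and *Slc32a1*. *Slc18a2* and the probes with runs of A and G were chosen after their values or sequences were seen. Alternatives covered normalization, background correction, filters, the authors' table, the probe of a gene, the slide row, the number before the dot of the mouse label, variance models, array weights and each mouse left out.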

Additional observations from a re-analysis of the deposited data

Results flagged for a closer look

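*Syt11* in control mice drew attention because 1 mouse stood apart from the other 3. Its level was 5.14 in control mouse 8.5, and the nearest control mouse was at 5.44. The gap was 0.836 of the range of the group. In this mouse *Syp*, *Syt1*, *Snap25* and *Vamp1* were also at their lowest. The comparison was made in 74 groups of 4 mice, 37 genes in each of 2 groups, and gave this 1 case, where chance marks about 1 in 20 groups.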

How the results depend on the processing

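Under the 18 other settings, 0 of 37 members passed the adjusted threshold, and the smallest adjusted p of any member was 0.5. The median of the members stayed within 1 SD of the mouse means (0.0544), from -0.0281 with quantile normalization to 0.0425 without control mouse 8.2. With mice blocked at random by the number before the dot of their label, 1 of 37313 probes passed, against 0, and the cause was not tested. No paired analysis was possible because the groups share no replicate number. Of the members, 13 of 37 kept their sign in each of these 18 settings, and the largest size in any was 0.313. The others turned as follows, with the cause not tested. With quantile normalization the fold change was -0.004 for *Napb*, -0.039 for *Rab3a*, -0.036 for *Rab3c*, -0.012 for *Snap91*, -0.010 for *Sv2a*, -0.024 for *Syn1*, -0.046 for *Syn2*, -0.033 for *Synj1*, -0.028 for *Syp* and -0.005 for *Syt5*. In the authors' table it was -0.010 for *Napb*, -0.026 for *Rab3a*, -0.058 for *Rab3c*, -0.012 for *Snap91*, -0.009 for *Sv2a*, -0.006 for *Sv2b*, -0.053 for *Syn1*, -0.029 for *Syn2*, -0.060 for *Synj1*, -0.009 for *Syp* and -0.010 for *Syt5*. Normexp background correction gave -0.017 for *Rab3c*, -0.005 for *Snap91*, -0.003 for *Syn2* and -0.016 for *Synj1*. The random block gave -0.010 for *Rab3c*, -0.008 for *Rims2*, -0.011 for *Snap91*, -0.002 for *Sv2c* and -0.005 for *Syt7*, and array weights gave -0.003 for *Sv2b*, -0.042 for *Syp* and -0.041 for *Vamp1*. The mean over all probes of a gene gave -0.034 for *Nlgn1*, -0.072 for *Pclo*, -0.027 for *Sv2c*, 0.004 for *Syn3*, -0.051 for *Synj1* and -0.155 for *Vamp1*. With each mouse left out in turn, the fold change ranged from -0.096 to 0.008 for *Bsn*, -0.062 to 0.025 for *Rab3b*, -0.066 to 0.029 for *Syt4*, -0.066 to 0.023 for *Vamp2*, -0.047 to 0.058 for *Rims2*, -0.033 to 0.070 for *Snap91*, -0.039 to 0.060 for *Sv2c*, -0.020 to 0.046 for *Syn2*, -0.026 to 0.079 for *Synpr*, -0.054 to 0.074 for *Syp*, -0.045 to 0.067 for *Syt7*, -0.037 to 0.040 for *Synj1*, -0.039 to 0.043 for *Rab3c*, -0.005 to 0.062 for *Rab3a*, -0.010 to 0.046 for *Sv2a*, -0.002 to 0.027 for *Sv2b*, -0.023 to 0.205 for *Unc13c* and -0.089 to 0.122 for *Vamp1*. Beyond the 18 settings, taking *Cplx2*, one of the 13, by its probe without the repeat, chosen after seeing the data, turned it to 0.022 and gave a median of 0.0157. Signal over background limits the second probes of *Vamp1* and *Vamp2*, which were well above background on 6 and 5 of 8 arrays.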
